A study of Mus musculus with 6 samples.

Results

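The retinoic acid receptors and retinoid X receptors are 6 genes of the mouse: Rara, Rarb and Rarg, which bind all-trans retinoic acid, and Rxra, Rxrb and Rxrg, their obligate partners. They were taken by symbol from a table of 54532 genes, and all 6 were found. RNA came from testis on postnatal day 9 in 3 wild-type samples and 3 samples labelled Ppp6r3 cKO, in which the gene for a protein phosphatase 6 regulatory subunit is conditionally deleted. The labels give no strain, no treatment, no Cre line and no deleted exon, and they do not say which cells lost the gene or whether each sample of a group is its own animal. P-values therefore reflect sample-to-sample spread only, which may be technical. Values are in FPKM, a fragment count divided by exon length and by a scaled library size, and allow levels to be compared between genes. The scaled size here set the median ratio of genes alike in every library.

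A receptor of the RAR kind pairs with an RXR and sits on DNA at retinoic acid response elements, most often a pair of short half-sites in direct repeat. Without ligand the pair holds corepressors, and with retinoic acid it exchanges them for coactivators. In the testis retinoic acid starts spermatogonial differentiation and meiotic entry. RAR gamma is known for a role in spermatogonia and RAR alpha for roles in Sertoli cells and germ cells.

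The element is shown here because Rarb and Cyp26a1 are textbook targets of the receptors themselves. RefSeq promoter windows (build GRCm38.p6, 250 bases before to 50 after each start) were searched on both strands for 4 half-sites (AGGTCA first, then AGTTCA, then GGGTCA, then GGTTCA) and for any 2 of them in direct repeat with a spacer of 1, 2 or 5 bases. Each repeat therefore also counts as half-sites. Capitals mark the repeat with a spacer of 5.
Rarb: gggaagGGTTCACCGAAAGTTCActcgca
Cyp26a1: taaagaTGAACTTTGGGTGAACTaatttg
The Rarb stretch lies at chr14:16575507-16575535 on the minus strand, with the repeat ending 36 bases before the start site, and is written on the gene's own strand. The Cyp26a1 stretch lies at chr19:37697770-37697798 on the plus strand, with the repeat ending 15 bases before the start site, and there the repeat reads on the opposite strand. Only 32 of 32851 windows (0.0974%) held a spacer-5 repeat, while 73 (0.222%) held the spacer-1 form and 88 (0.268%) the spacer-2 form. The 6 receptors had 13 windows, of which 7 held at least 1 half-site, against 43.7% of all windows. Of those 13, the Rarb window held a repeat of these letters and the windows of Rara, Rarg, Rxra, Rxrb and Rxrg held none. A match describes the letters and is not evidence of binding in this tissue.

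The 6 libraries gave back 15888430 to 16654370 fragments each. The targeted gene Ppp6r3 gave 20.8 to 21.3 FPKM in the wild-type libraries, and 14.9 to 15.8 FPKM in those of Ppp6r3 cKO, where it fell by 0.45 on the log2 scale (limma adjusted p = 0.000698). Defining markers of testis cells were present in wild type: Sox9 of Sertoli cells at 38.5 FPKM, Cyp11a1 of Leydig cells at 19.3 FPKM and Sycp1 of meiotic cells at 21.7 FPKM. Ppp6r3 cKO replicate 1 stood apart by GC content: the median gene in the GC-richest of 10 bins lay 0.126 above its mean over the 6 libraries on the log2 scale, against -0.064 to 0.025 in the other libraries. The receptors Rara, Rarg and Rxrb fall in that bin and Rxra in the next, and their values corrected for GC and length are given with each.

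Of the 6 receptors, 5 had at least 10 fragments in at least 3 libraries and were tested. Rxra rose in Ppp6r3 cKO testis, and Rara, Rarb, Rarg and Rxrb did not pass the test. That is 1 rise and no fall among 5 tested receptors, against 7.66% of 17670 tested genes that rose and 7.83% that fell (limma, Benjamini-Hochberg adjusted p under 0.05). In Rxra and Rara all 3 Ppp6r3 cKO libraries lay above all 3 wild-type libraries, as they did for 18.8% of tested genes (36.9% had groups that did not overlap in either direction). The receptors' median log2 fold change was 0.05, and that of all tested genes was 0.003.

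**Figure D1:**
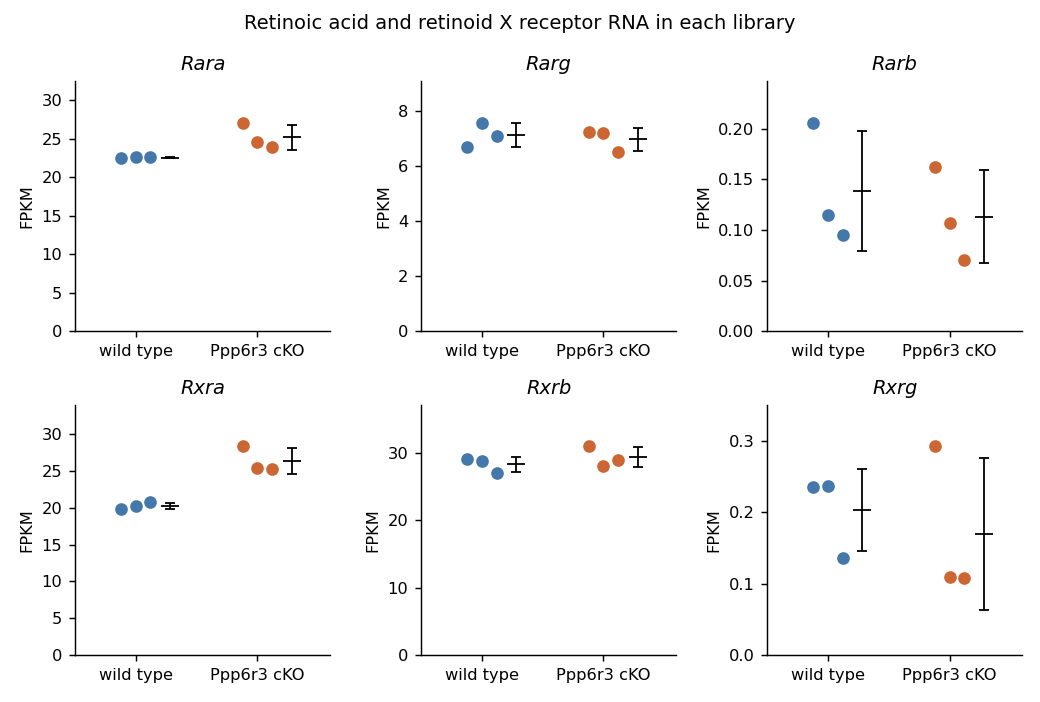
FPKM (vertical axes, from 0) of each receptor in the 3 wild-type libraries (blue) and the 3 Ppp6r3 cKO libraries (orange), in order of replicate number, with the mean and SD in black beside them. Rxra runs from 19.9 to 20.7 FPKM in wild type and from 25.3 to 28.3 FPKM in Ppp6r3 cKO, while Rarb and Rxrg stay below 0.3 FPKM.

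Rxra encodes RXR alpha, a partner shared by the RARs, the PPARs, the vitamin D receptor and the thyroid hormone receptors (ENSMUSG00000015846, chromosome 2, 27676440 to 27762957, plus strand, protein-coding, GENCODE M21 on GRCm38). Wild-type replicates 1 to 3 had 19.9, 20.3 and 20.7 FPKM, and Ppp6r3 cKO replicates 1 to 3 had 28.3, 25.4 and 25.3 FPKM. The groups did not overlap, and the highest value was that of Ppp6r3 cKO replicate 1. The means were 20.3 ± 0.425 and 26.3 ± 1.72 FPKM (SD, n = 3 each), a log2 fold change of 0.37 (SE 0.053, 95% interval 0.25 to 0.50, limma adjusted p = 0.00409). As a fold this is 1.19 to 1.41 at the bounds. Of all tested genes, 6.16% had a larger rise. Between 1802 and 2536 fragments per library stand behind these values. Rxra has a GC content of 57.9%. In its GC bin the median log2 fold change was 0.045 and 13.8% of genes rose. After a correction for GC content and length the difference was 0.29 (limma adjusted p = 0.00235), and without Ppp6r3 cKO replicate 1 it was 0.32 (limma adjusted p = 0.0051).

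Rxrb encodes RXR beta (ENSMUSG00000039656, chromosome 17, 34031812 to 34038399, plus strand). The wild-type libraries had 29.0, 28.9 and 27.1 FPKM against 31.0, 28.04 and 29.0 FPKM in the Ppp6r3 cKO libraries, and the groups overlapped. The log2 fold change was 0.05 (SE 0.051, 95% interval -0.067 to 0.167, limma adjusted p = 0.548). As a fold this interval runs from 0.95 to 1.12. The value was -0.02 after the GC and length correction (adjusted p = 0.765).

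Rxrg encodes RXR gamma (ENSMUSG00000015843, chromosome 1, 167598384 to 167639623, plus strand). It was near the limit of detection, with 9, 9 and 5 fragments in wild type and 11, 4 and 4 in Ppp6r3 cKO. In FPKM these were 0.236, 0.236 and 0.136 against 0.292, 0.109 and 0.108, so the groups overlapped. Only 1 library reached 10 fragments, so Rxrg was left out of the main test. With no filter on low values its log2 fold change was -0.22 (95% interval -1.105 to 0.673, limma adjusted p = 0.797).

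Rxra was also set against Rxrb within each library. The ratio of Rxra to Rxrb in FPKM was 0.68, 0.70 and 0.76 in wild type and 0.91, 0.91 and 0.87 in Ppp6r3 cKO, with no overlap. The log2 ratio differed by 0.33 (2-sided exact permutation p = 0.1, the smallest that 3 against 3 libraries can give; 0.1 after adjustment over 2 such ratios). These 2 ratios were chosen after the values were seen. Rxra made up 41.6% ± 1.46 of the summed RXR transcripts in wild type and 47.1% ± 0.596 in Ppp6r3 cKO (SD, n = 3 each, in FPKM). Rxrg made up under 0.5% in every library.

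Rara encodes RAR alpha (ENSMUSG00000037992, chromosome 11, 98927818 to 98974942, plus strand). The wild-type libraries had 22.5, 22.6 and 22.6 FPKM against 27.1, 24.5 and 23.99 FPKM in the Ppp6r3 cKO libraries. The groups did not overlap, the wild-type libraries lay very close together, and Ppp6r3 cKO replicate 1 was again the highest. The log2 fold change was 0.16 (SE 0.052, 95% interval 0.037 to 0.276), which did not pass over all genes (limma adjusted p = 0.0795). It was called by voom on recovered fragments (adjusted p = 0.0212), a test that called 23% of genes in all and 11.9% higher, and by none of the other 17 alternatives. The value was 0.08 after the GC and length correction (adjusted p = 0.123) and 0.10 without Ppp6r3 cKO replicate 1 (adjusted p = 0.106). In the GC bin of Rara, at 59.3% GC, the median log2 fold change was 0.089 and 15.7% of genes rose.

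Rarg encodes RAR gamma (ENSMUSG00000001288, chromosome 15, 102234938 to 102257517, minus strand). The wild-type libraries had 6.71, 7.58 and 7.10 FPKM against 7.23, 7.21 and 6.50 FPKM in the Ppp6r3 cKO libraries, and the groups overlapped. The log2 fold change was -0.03 (SE 0.069, 95% interval -0.189 to 0.129, limma adjusted p = 0.808), from 447 to 536 fragments per library. After the GC and length correction it was -0.10 (95% interval -0.246 to 0.055, adjusted p = 0.35). The ratio of Rara to Rarg was 3.35, 2.98 and 3.19 in wild type and 3.75, 3.40 and 3.69 in Ppp6r3 cKO. These groups did not overlap, and the log2 ratio differed by 0.19 (2-sided exact permutation p = 0.1, the smallest possible). Leaving out 1 library gave 0.144 to 0.231. The exact permutation p was 0.2 without wild-type replicate 2 or 3, or without Ppp6r3 cKO replicate 1 or 3.

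Rarb encodes RAR beta (ENSMUSG00000017491, chromosome 14, 16430839 to 16819156, minus strand), the RAR whose promoter window holds the response element printed above. By FPKM it was the lowest of the 6 receptors, with 18, 10 and 8 fragments in wild type and 14, 9 and 6 in Ppp6r3 cKO. In FPKM these were 0.206, 0.114 and 0.0951 against 0.162, 0.107 and 0.0706, and the groups overlapped. The log2 fold change of -0.16 had a 95% interval of -0.755 to 0.443 (limma adjusted p = 0.73). The size depended on the pseudocount of 0.1, which is close to the level of the gene: it was -0.27 (95% interval -1.253 to 0.721) with 0.01, -0.03 (-0.169 to 0.105) with 1, and -0.28 (-1.172 to 0.618) with voom. No direction was detectable at this depth. Rarb met the minimum in exactly 3 libraries. Of its 5265 exon bases, 1793 are shared with Top2b on the opposite strand, which had a mean of 6.25 FPKM, and the strand setting of the counting was not given in the sources used here.

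**Figure D2:**
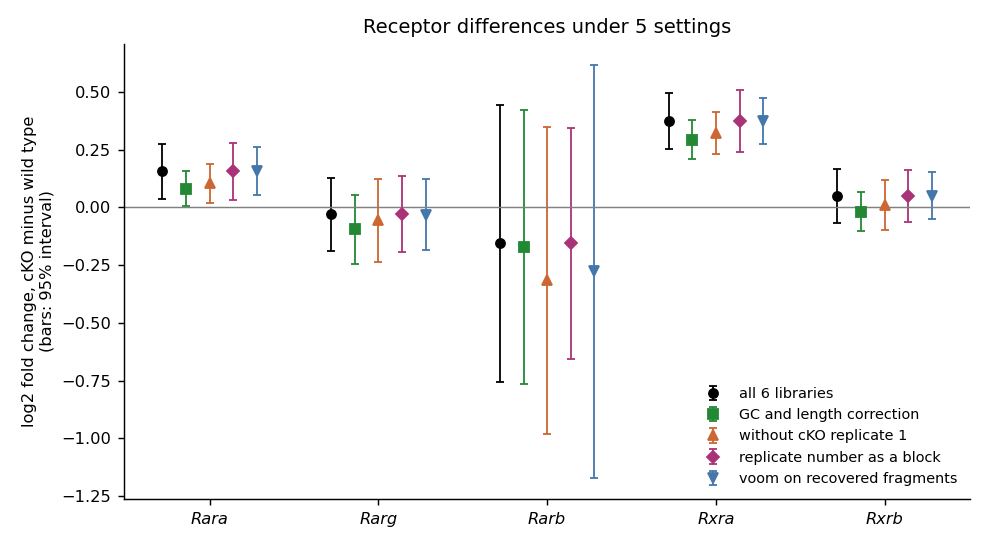
Log2 fold change (vertical axis, Ppp6r3 cKO minus wild type, bars 95% intervals) of the 5 tested receptors in 5 analyses: all libraries, a GC and length correction, 1 library fewer (Ppp6r3 cKO replicate 1 left out), replicate numbers used as blocks, and voom. Rxra lies between 0.29 and 0.38 in all 5, Rarg and Rxrb lie near 0, and the intervals of Rarb span both directions.

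By level in wild type, Rxrb came first, then Rara (22.6 ± 0.0648 FPKM), Rxra, Rarg (7.13 ± 0.435 FPKM), Rxrg and Rarb (SD, n = 3 each). The ranges of neighbours did not overlap except for Rxrg and Rarb. In Ppp6r3 cKO the order was Rxrb, Rxra, Rara, Rarg, Rxrg and Rarb. There Rxra stood above Rara in 3 of 3 libraries and below it in 3 of 3 wild-type libraries, but the ranges of Rxrb, Rxra and Rara overlapped from each to the next across the Ppp6r3 cKO libraries. Summed FPKM of the 3 RAR genes was 29.4, 30.3 and 29.8 in wild type and 34.5, 31.9 and 30.6 in Ppp6r3 cKO. The summed RXR genes gave 49.2, 49.4 and 47.9 against 59.6, 53.6 and 54.4. Neither pair of sums overlapped between the groups, but the RAR sums came close (30.3 in wild type against 30.6 in Ppp6r3 cKO). The ratio of RXR to RAR was 1.64 ± 0.0317 in wild type and 1.73 ± 0.0501 in Ppp6r3 cKO. The order, the sums and this ratio were neither tested nor corrected for GC content.

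**Figure D3:**
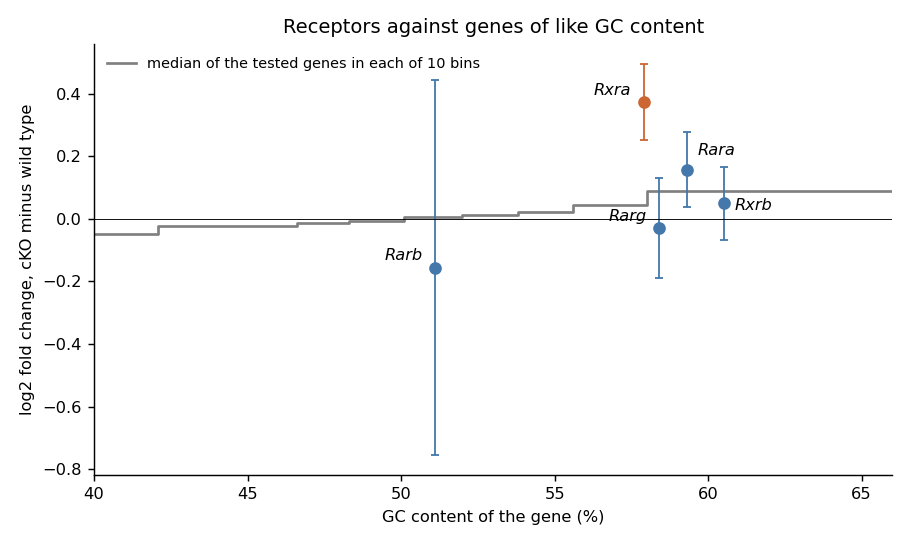
Log2 fold change (vertical axis) against the GC content of the gene in percent (horizontal axis) for the 5 tested receptors, with 95% intervals, and the median of tested genes in 10 GC bins as a grey step. The grey median is 0.089 in the GC-richest bin, where Rara, Rarg and Rxrb lie, and the interval of Rxra lies above it.

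RNA was from whole testis, in which more or fewer cells of a type and more or less RNA per cell cannot be told apart. Marker lists were read beside Rxra, against the 7.66% of all tested genes that rose and the 7.83% that fell. Both shares varied with GC content. In the GC-poorest of 10 bins 2.32% of genes rose and 159 of 1766 fell. In the GC-richest bin 15.7% rose and 71 of 1766 fell. The marker counts and sums below were not corrected for this. Interstitial fibroblast markers rose in 5 of 10 and fell in none, with a summed level of 508 to 516 FPKM in wild type and 604 to 626 FPKM in Ppp6r3 cKO. Endothelial markers rose in 7 of 13 (60.4 to 65.8 against 87.7 to 95.1 FPKM) and macrophage markers in 4 of 11 (124 to 131 against 163 to 176 FPKM), with no fall in either list. The Leydig list had 2 rises (15.4%) and 1 fall (7.69%) among 13 (339 to 353 against 375 to 389 FPKM). The Sertoli list had 5 rises and 3 falls among 20, with overlapping sums (4638 to 4776 against 4566 to 4695 FPKM). The myoid list had 1 rise and 3 falls among 8 (658 to 685 against 568 to 598 FPKM). Among germ cells, 8 of 19 tested markers of undifferentiated spermatogonia rose and none fell (186 to 192 against 218 to 228 FPKM), differentiating spermatogonia had 4 rises and 3 falls among 11 (623 to 649 against 489 to 536 FPKM), and all 20 tested early meiotic markers fell (517 to 524 against 292 to 303 FPKM). Erythroid markers fell in 3 of 5 tested (320 to 356 against 203 to 223 FPKM). These sums weigh abundant genes most, so a few genes can carry them. The 3 falls of the differentiating list were Stra8, Prss50 and Rhox13. Their mean FPKM was 130, 70.4 and 66.1 in wild type and 51.4, 36.9 and 47.4 in Ppp6r3 cKO. In the myoid list Acta2 alone had means of 552 and 463 FPKM, and in the macrophage list Lyz2 had 50.0 and 78.4 FPKM. Ret and Zbtb16 are on the spermatogonial list, and Nr2f2 is on the fibroblast list. Of the defining markers, Pdgfra of fibroblasts, Pecam1 of endothelium and Adgre1 of macrophages rose, by 0.29, 0.38 and 0.62 on the log2 scale. Acta2 of myoid cells, Sycp1 of meiotic cells and Hbb-bs of erythroid cells fell by 0.25, 0.73 and 0.71. Sox9, Cyp11a1, Gfra1 of undifferentiated spermatogonia and Kit of differentiating spermatogonia did not pass. No matched marker was at 0 in every library, and Nanos2, Slc4a1 and Epb42 were among those too low to test. The part of these cells in the change of Rxra was not tested.

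The rest of the receptor machinery was read from lists of related genes, some of which share members. Their counts are read against the 7.66% of all tested genes that rose and the 7.83% that fell. Among 21 tested corepressors and related inhibitors 5 rose (23.8%) and 2 fell (9.52%), with a median log2 fold change of 0.02. The 2 falls became 1 or 0 without any 1 of the 6 libraries, and 0 with no filter on low values. Ncor1, a corepressor that binds RARs without ligand, had overlapping groups, and its log2 difference was 0.04 (limma adjusted p = 0.614). Zbtb16, which recruits corepressors and is a marker of undifferentiated spermatogonia here, rose by 0.50. The ligand-dependent corepressor Lcor rose by 0.49 and Tnip1, which can repress liganded RARs, by 0.31. For Nrip1, a corepressor induced by retinoic acid, the log2 difference was 0.21 (adjusted p = 0.076; called by voom).

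Of 26 coactivators tested, 2 rose (7.69%) and 1 fell (3.85%), against 7.66% and 7.83% of all tested genes, and the median log2 fold change was 0.07. The histone acetyltransferases Crebbp and Kat2b rose by 0.25 and 0.22, and the Mediator kinase module subunit Med12 fell by 0.23. The calls of Crebbp, Kat2b and Med12 were lost without 4, 5 and 2 of the 6 libraries in turn.

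Among 11 tested partners of RXR, 1 rose and 1 fell (9.09% each), near the 7.66% and 7.83% of all tested genes. Pparg, the adipogenic PPAR, had 2.67, 2.12 and 2.31 FPKM in the wild-type libraries against 1.43, 1.21 and 1.07 FPKM, with no overlap, and fell by 0.89 (SE 0.143, limma adjusted p = 0.00639). With a pseudocount of 1 in place of 0.1 the fall of Pparg was 0.59 on the log2 scale and was still called. Nr4a1, an immediate early receptor that can pair with RXR, rose by 0.42 (adjusted p = 0.00903). The thyroid hormone receptor Thra, the most abundant nuclear receptor here at 64.6 ± 1.32 FPKM in wild type (SD, n = 3), differed by 0.17 on the log2 scale (limma adjusted p = 0.07), which voom and the fit without Ppp6r3 cKO replicate 2 called, and by 0.11 after the GC and length correction (adjusted p = 0.0687).

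Of the 25 other nuclear receptors tested, 2 rose and 2 fell (8% each), near the 7.66% and 7.83% of all tested genes. Nr6a1 (GCNF), an orphan receptor of germ cells, fell by 0.43 (limma adjusted p = 0.00428), and Nr0b1 (DAX1), an inhibitor of other nuclear receptors, fell by 0.34 (adjusted p = 0.00343). Nr1d1 rose by 0.29 and Nr2f6 by 0.24, but the first call was lost without any of 5 libraries and the second without any of the 6. Nr2f6 also lost its call after the GC and length correction (0.15, adjusted p = 0.107). Nr2f1, Nr2f2, Nr2c1 and Nr2c2, orphan receptors that can bind direct repeats, did not pass: the log2 difference was 0.19 for Nr2f2 (COUP-TFII; adjusted p = 0.0599, called by voom and after quantile normalization), 0.52 for Nr2f1, at only 0.192 FPKM in wild type (adjusted p = 0.125; 0.15 with a pseudocount of 1), -0.15 for Nr2c1 and 0.01 for Nr2c2. Over the family of 48 nuclear receptor genes examined, the rank by mean FPKM was 5 for Rxrb, 6 for Rara, 7 for Rxra, 17 for Rarg, 39 for Rxrg and 42 for Rarb. Of the 41 tested, 4 rose and 3 fell, where 7.66% and 7.83% of all tested genes did, and Rxra had rank 4 by log2 fold change.

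**Figure D4:**
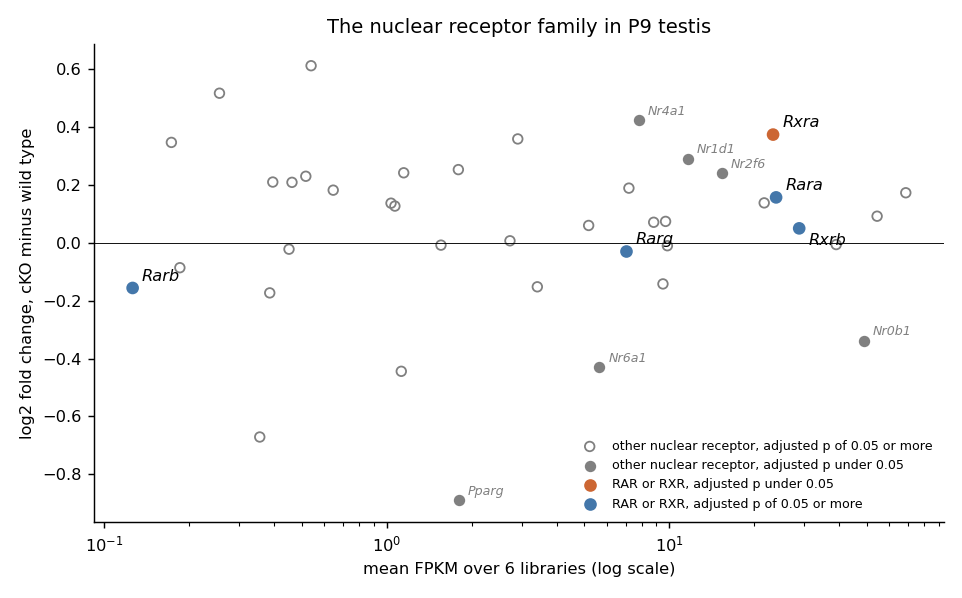
Log2 fold change (vertical axis) against mean FPKM over the 6 libraries (horizontal axis, log scale) for the 41 tested nuclear receptors, with RARs and RXRs in colour and other receptors in grey. Rxra is the most abundant of the 4 receptors that rose, and Pparg lies lowest.

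Of 21 tested genes that retinoic acid is known to induce, 2 rose (9.52%) and 4 fell (19.0%), against 7.66% and 7.83% of all tested genes, and the median difference was 0.01 on the log2 scale. Stra8, which licenses meiosis, went from 131, 131 and 127 FPKM to 52.5, 53.0 and 48.7 FPKM, and the meiotic cohesin Rec8 fell by 0.63 (limma adjusted p = 0.00045). Both also belong to germ cell marker lists here, as does Ret. Cyp26a1, the retinoic acid hydroxylase whose promoter repeat is printed above, had 3.40, 3.30 and 2.54 FPKM in the wild-type libraries against 2.44, 1.84 and 2.10 FPKM. Its groups did not overlap, and its log2 fold change of -0.51 passed narrowly (SE 0.145, adjusted p = 0.0489). That call was lost in 10 of 18 alternatives, among them the fits that left out wild-type replicate 1, wild-type replicate 2, Ppp6r3 cKO replicate 2 and Ppp6r3 cKO replicate 3. The 2 rises were those of the GDNF receptor gene Ret, by 0.47 (limma adjusted p = 0.00409), and of Cyp26b1, by 0.38 (adjusted p = 0.00221). Both were called in all 18 alternatives. The remaining fall was that of Rbp4, by 0.44 (adjusted p = 0.0105). Cyp26b1 and Rbp4 are also on the list of supply and breakdown. For the reductase Dhrs3 the log2 difference was -0.18 (adjusted p = 0.103), called without Ppp6r3 cKO replicate 1.

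Of 24 tested genes of retinoic acid supply and breakdown, 4 rose (16.7%) and 5 fell (20.8%), against 7.66% and 7.83% of all tested genes, with a median log2 fold change of -0.02. The rises became 2 without any 1 library but Ppp6r3 cKO replicate 1, and the falls numbered 3 to 7 when 1 library was left out. Cyp26b1, the main retinoic acid hydroxylase of the testis, had 49.7, 49.2 and 52.9 FPKM in the wild-type libraries against 69.3, 63.7 and 65.1 FPKM. It rose by 0.38 (SE 0.047, limma adjusted p = 0.00221; 0.32 after the GC and length correction). Dgat1, an acyltransferase that can esterify retinol, fell by 0.52, and the retinol carrier Rbp4 fell by 0.44. Of the retinal dehydrogenases that make retinoic acid, Aldh1a2 fell by 0.28 (adjusted p = 0.00678) and Aldh1a1 rose by 0.13 (adjusted p = 0.0277), the latter call being lost in 6 of 18 alternatives, 5 of them without 1 library (each but Ppp6r3 cKO replicate 1). These were singled out after their values were seen. Rbpr2 and Meiosin were not matched in the table and are not analysed here.

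**Figure D5:**
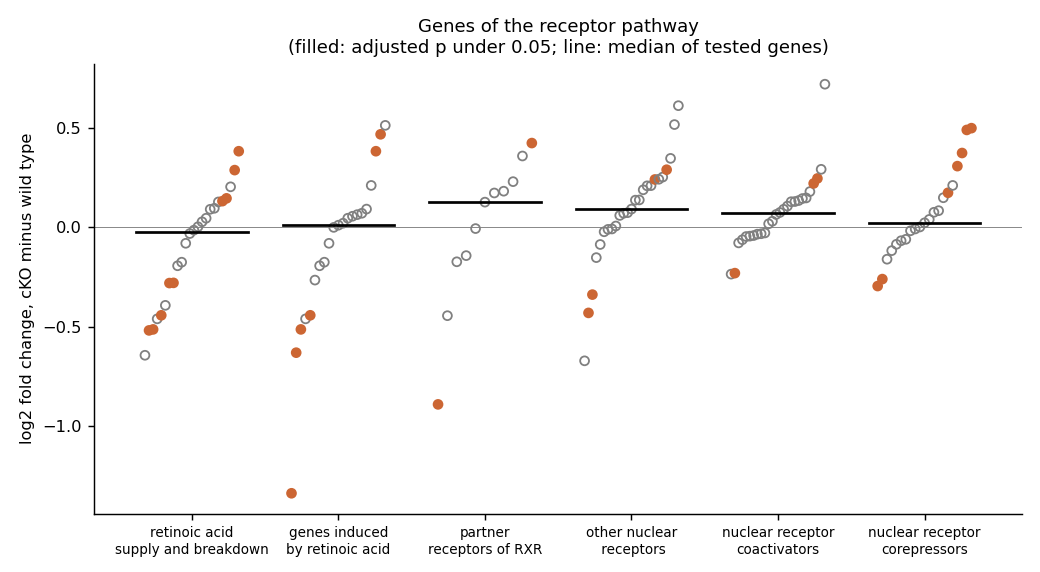
Log2 fold change (vertical axis) of every tested gene in 6 lists of the receptor pathway, sorted within each list, with filled points at an adjusted p under 0.05 and a line at each list's median. The medians lie between -0.02 and 0.13, and Stra8 is the lowest point.

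Likeness to each receptor was measured over the 6 libraries as the root mean square difference of log2(FPKM + 0.1), each gene centred on its own mean, among 119 tested genes of the pathway lists. Cyp26b1 (0.030) was nearest to Rxra, where the median of the 119 was 0.199. Med25 (0.027), a Mediator subunit, and Thra (0.035) were nearest to Rara, Mnat1 (0.036) and Ncoa1 (0.066) to Rarg, and Smarca4 (0.030) to Rxrb. For Rarb, whose values rest on few fragments, the nearest were Med14 (0.198) and Lrat (0.211). The GC bias of Ppp6r3 cKO replicate 1 enters every one of these distances, which are a description.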

How the data were processed

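Polyadenylated RNA of 6 testis samples was sequenced from stranded libraries made with a KAPA kit, per the labels' protocols. Paired-end reads were aligned to mm10 with HISAT2 2.0.5, per the series' design text, and DESeq2 is named in the submitters' processing notes with no role given. How fragments were counted, with which strand setting and gene models, was not given in the sources used here. The table is named as raw counts, but the values deposited by the authors are FPKM. Median-ratio factors over 21402 genes were 1.0037 in every library, so the values already stood on a median-ratio scale.

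With GENCODE M21 exon lengths, FPKM gave whole fragment numbers (tolerance 0.01) for 31623 of 32589 genes above 0 (97.0%). Another length made 964 more whole, and 2 were not recovered. The recovered fragments summed to 99.48% to 101.49% of the number the step implies, so the depth is inferred.

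Because the values are not counts, limma 3.58.1 (R 4.3.3) was run on log2(FPKM + 0.1) (trend, robust, 2-sided) for genes with at least 10 recovered fragments in 3 libraries, with Benjamini-Hochberg adjustment over 17670 genes and a threshold of 0.05. Fold changes on this scale understate those of low genes. Alternatives changed the model (voom), pseudocount, filter, scaling, GC and length (splines with 5 degrees of freedom), robust estimation, replicate block and libraries. Total-fragment scaling, the block with the GC correction, and the 2 gene ratios were added after the data were seen. Replicate libraries were not copies: chi-square over degrees of freedom was 2.22 to 4.23 within groups. The receptors and all gene lists were chosen with earlier results of these data known. Genes named are the 6 receptors, Ppp6r3, of each pathway list, the 4 called genes that changed most, preset retinoic acid targets and regulators, defining markers, and the 2 pathway genes nearest to each receptor. Some genes that this rule names are not reported here. Top2b, Aldh1a1 and Aldh1a2 were named after their values were seen. Tables were handled in Python 3.11.15 with pandas 2.3.3 and numpy 2.4.6.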

Additional observations from a re-analysis of the deposited data

How the results depend on the processing

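Rxra stayed called in all 18 alternatives, from 0.29 to 0.40, with adjusted p from 7.7e-07 to 0.0216. Ppp6r3 also stayed called. Voom on recovered fragments called Rara (0.158), so 2 receptors rose there, and no other alternative changed the call of a receptor. The signs of uncalled receptors changed: Rxrb was -0.018 after the GC and length correction, with or without the block. Leaving out 1 library gave 0.104 to 0.191 for Rara, -0.316 to 0.038 for Rarb, -0.072 to 0.020 for Rarg (0.014 without wild-type replicate 2), 0.321 to 0.402 for Rxra and 0.011 to 0.083 for Rxrb. The cause of these changes was not tested.

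Over all genes 2736 were called, 1508 with no low-value filter and 1235 to 2397 without 1 library (1619, 1235 and 1331 without wild-type replicate 1, 2 or 3). With the replicate number as a block 2194 were called and Rxra kept its call (limma adjusted p = 0.015). Same-numbered samples did not deviate together (correlations of deviations 0.02, -0.01 and -0.01), and not every sample was nearest to its own number, so the numbers were not taken as pairs. The block changed no receptor's call. Over all alternatives, rises among coactivators numbered 0 to 7, among corepressors 4 to 6 and among other nuclear receptors 0 to 4. The highest counts of coactivators and of other nuclear receptors came with voom, which called 11.9% of all tested genes higher. Among genes of supply and breakdown 2 to 4 rose and 3 to 7 fell, and 0 to 2 corepressors fell. Depth limits Rarb and Rxrg. Rxrg had a value only with no low-value filter, and Rarb, whose level lies below 0.5 FPKM, had none with that minimum.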

Other observations

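The spacer-5 repeat stood in the promoter windows of 31 genes in all, of which 18 were found by symbol in the expression table and 5 were tested: Rarb, Cyp26a1, Blvrb, Prokr2 and Cfap45. Cyp26a1 fell (log2 fold change -0.51, limma adjusted p = 0.0489), a call lost in 10 of 18 alternatives. The other 4 did not pass, with values from -0.16 for Rarb to 0.34 for Prokr2. That is 1 fall among 5 (20%), against 7.83% of all tested genes that fell. Blvrb, a biliverdin reductase, had a log2 fold change of 0.08, and Cfap45, a cilium protein gene, one of -0.06. This search was made after the expression values were seen.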
